A study of Mus musculus with 12 samples.

Results

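The genes described here are 10 genes of fatty acid synthesis and its control by SREBP1, namely Srebf1, Acly, Acaca, Acacb, Fasn, Elovl6, Scd1, Me1, Thrsp and Mid1ip1. They were picked by gene symbol from the 34348 genes of the deposited expression table, and all 10 were found. RNA sequencing of liver and small intestine from C57BL/6 mice gave 12 libraries in 4 groups of 3. The groups were LCWE liver (replicates 1, 2 and 4), PBS liver (replicates 2, 3 and 4), LCWE small intestine (replicates 1, 2 and 4) and PBS small intestine (replicates 2, 3 and 4). LCWE commonly stands for Lactobacillus casei cell wall extract, given to mice to induce a vasculitis that models Kawasaki disease, and PBS is phosphate-buffered saline, the control. The treated columns of the authors' comparison table read LCWECFA, a name the sources used here do not explain, so a further agent in the treated groups cannot be told apart from LCWE. Age, sex, dose and time after treatment are not given in the sources used here, nor whether liver and intestine came from the same mice or the libraries from separate ones, and p-values therefore measure only the spread between libraries, which may be technical.

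De novo lipogenesis turns cytosolic citrate into saturated and monounsaturated fatty acids. ATP citrate lyase makes acetyl-CoA, acetyl-CoA carboxylase makes malonyl-CoA, fatty acid synthase builds palmitate, and elongase and desaturase lengthen and unsaturate it, with NADPH partly from malic enzyme. In liver the pathway follows feeding: insulin raises the transcription factor SREBP1c, product of Srebf1, which acts at sterol regulatory elements of these genes together with NF-Y, which binds CCAAT boxes, and Sp1, which binds GC boxes.

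Promoter windows show which of these boxes the genes carry, and the 5 windows printed here belong to the regulator Srebf1, to Acly and Mid1ip1, whose liver groups stood apart as Srebf1's did, and to Fasn, the synthase itself, and Thrsp, the gene that varied most between livers. Windows covered 250 bases before to 50 bases after the transcription start in RefSeq (GRCm38.p6, the mm10 sequence), and 9 of the 10 genes matched with 12 windows, 3 for Srebf1 and 2 for Me1. Scd1 had no entry and is named only. The sequences run 5′ to 3′ on the gene's strand, and capitals mark CCAAT (or ATTGG) and GGGCGG (or CCGCCC).
Srebf1, chr11:60210422-60210721, minus strand: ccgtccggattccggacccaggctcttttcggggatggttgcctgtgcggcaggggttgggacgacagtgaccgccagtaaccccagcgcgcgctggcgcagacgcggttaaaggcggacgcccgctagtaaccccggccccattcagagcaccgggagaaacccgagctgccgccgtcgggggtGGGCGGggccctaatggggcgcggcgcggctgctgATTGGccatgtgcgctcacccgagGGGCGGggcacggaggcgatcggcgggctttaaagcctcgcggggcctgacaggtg
Acly, chr11:100527951-100528250, minus strand: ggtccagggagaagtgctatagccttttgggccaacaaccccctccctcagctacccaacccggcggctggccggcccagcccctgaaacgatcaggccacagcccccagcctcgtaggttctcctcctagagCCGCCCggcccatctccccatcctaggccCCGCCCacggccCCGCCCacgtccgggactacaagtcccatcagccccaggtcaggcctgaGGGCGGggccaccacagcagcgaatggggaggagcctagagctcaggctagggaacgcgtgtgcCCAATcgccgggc
Fasn, chr11:120824498-120824797, minus strand: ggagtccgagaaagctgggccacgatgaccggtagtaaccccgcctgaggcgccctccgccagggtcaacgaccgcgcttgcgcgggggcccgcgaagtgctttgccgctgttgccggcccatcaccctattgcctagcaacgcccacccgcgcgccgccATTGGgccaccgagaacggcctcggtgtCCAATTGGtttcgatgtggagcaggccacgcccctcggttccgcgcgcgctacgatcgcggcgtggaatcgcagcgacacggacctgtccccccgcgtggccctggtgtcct
Thrsp, chr7:97417501-97417800, minus strand: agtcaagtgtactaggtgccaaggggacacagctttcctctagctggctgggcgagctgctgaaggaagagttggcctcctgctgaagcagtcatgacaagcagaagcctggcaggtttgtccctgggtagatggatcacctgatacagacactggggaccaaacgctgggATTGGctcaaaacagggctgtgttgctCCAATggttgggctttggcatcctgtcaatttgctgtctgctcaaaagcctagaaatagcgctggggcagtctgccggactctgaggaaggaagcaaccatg
Mid1ip1, chrX:10717115-10717414, plus strand: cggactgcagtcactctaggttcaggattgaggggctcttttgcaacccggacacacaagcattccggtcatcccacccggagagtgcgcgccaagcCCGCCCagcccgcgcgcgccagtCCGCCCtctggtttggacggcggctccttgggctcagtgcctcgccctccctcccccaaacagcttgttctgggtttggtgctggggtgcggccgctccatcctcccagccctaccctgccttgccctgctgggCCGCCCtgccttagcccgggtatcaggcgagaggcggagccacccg
Fasn had 3 CCAAT matches, whose first bases lay 90, 62 and 59 bases before the start, and the last of these overlap on opposite strands. Thrsp had 2, at 79 and 52 bases before the start. Mid1ip1 had no CCAAT match but 3 GC boxes, and Acly had 4 GC boxes, of which the farthest began 117 bases before the start. The Srebf1 window shown, the one of its 3 that held both boxes, had a CCAAT match 30 bases before the start between GC boxes at 65 and 6 bases. Of the 12 windows, 7 held CCAAT on either strand, against 37.4% of 32851 mouse promoter windows, and 5 held GGGCGG, against 35.7%. None held the sterol element letters TCACNCCAC, found in 1.24% of all windows, or the E-box CACGTG, found in 7.15%. These are letter matches, not measured binding. Only the exact letters given, with N as any base, were searched for, so variant elements would be missed, and letters may lie outside the window.

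Values are RPKM, that is, reads divided by gene length in kilobases and by the total reads of the library. They can be compared between genes. Between libraries they are shares of each total, and the comparison of the tissues depended on scaling, as given below. Libraries held 30294594 to 44921885 reads in genes, and the 10 genes had between 90 reads (Thrsp) and 397846 reads (Scd1) in a library. Tests used limma on log2(RPKM + 0.5), in which fold changes of low genes are understated, with p-values adjusted by Benjamini and Hochberg over all genes tested and a gene called at an adjusted p below 0.05. With 3 libraries against 3, the smallest two-sided p of an exact permutation test is 0.1, and no gene was tested alone. All 10 genes passed the filter on low values (an RPKM of 0.5 or more in 3 libraries of a comparison) in every comparison, Acacb in the intestine through 2 LCWE libraries and 1 PBS library. RNA came from whole tissue, in which fewer cells of a type and less RNA per cell cannot be told apart. All 10 hepatocyte markers stood above 0.5 RPKM in every liver library, and all 10 enterocyte markers in every PBS intestine library and 9 of 10 in every LCWE intestine library. All 10 hepatocyte markers also stood above 0.5 RPKM in every intestine library, and 6 of the 10 enterocyte markers in every liver library. This threshold therefore does not separate the tissues.

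In liver, Mid1ip1 fell in LCWE mice and was the one gene of the 10 to pass the test. Srebf1 and Acly also had every LCWE liver below every PBS liver, without passing. For the other 7 genes the groups overlapped, and one library, LCWE liver replicate 4, held the highest LCWE value of all of them. In that comparison 0.646% of 14404 genes were called lower and 3.39% higher. Groups did not overlap, with LCWE lower, for 8.84% of genes tested and, with LCWE higher, for 18.7%. The median log2 difference of the 10 genes was -0.74, against 0.06 over all genes tested. Of the 10 estimates 8 were below 0, against 39.8% of all genes tested.

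**Figure D1:**
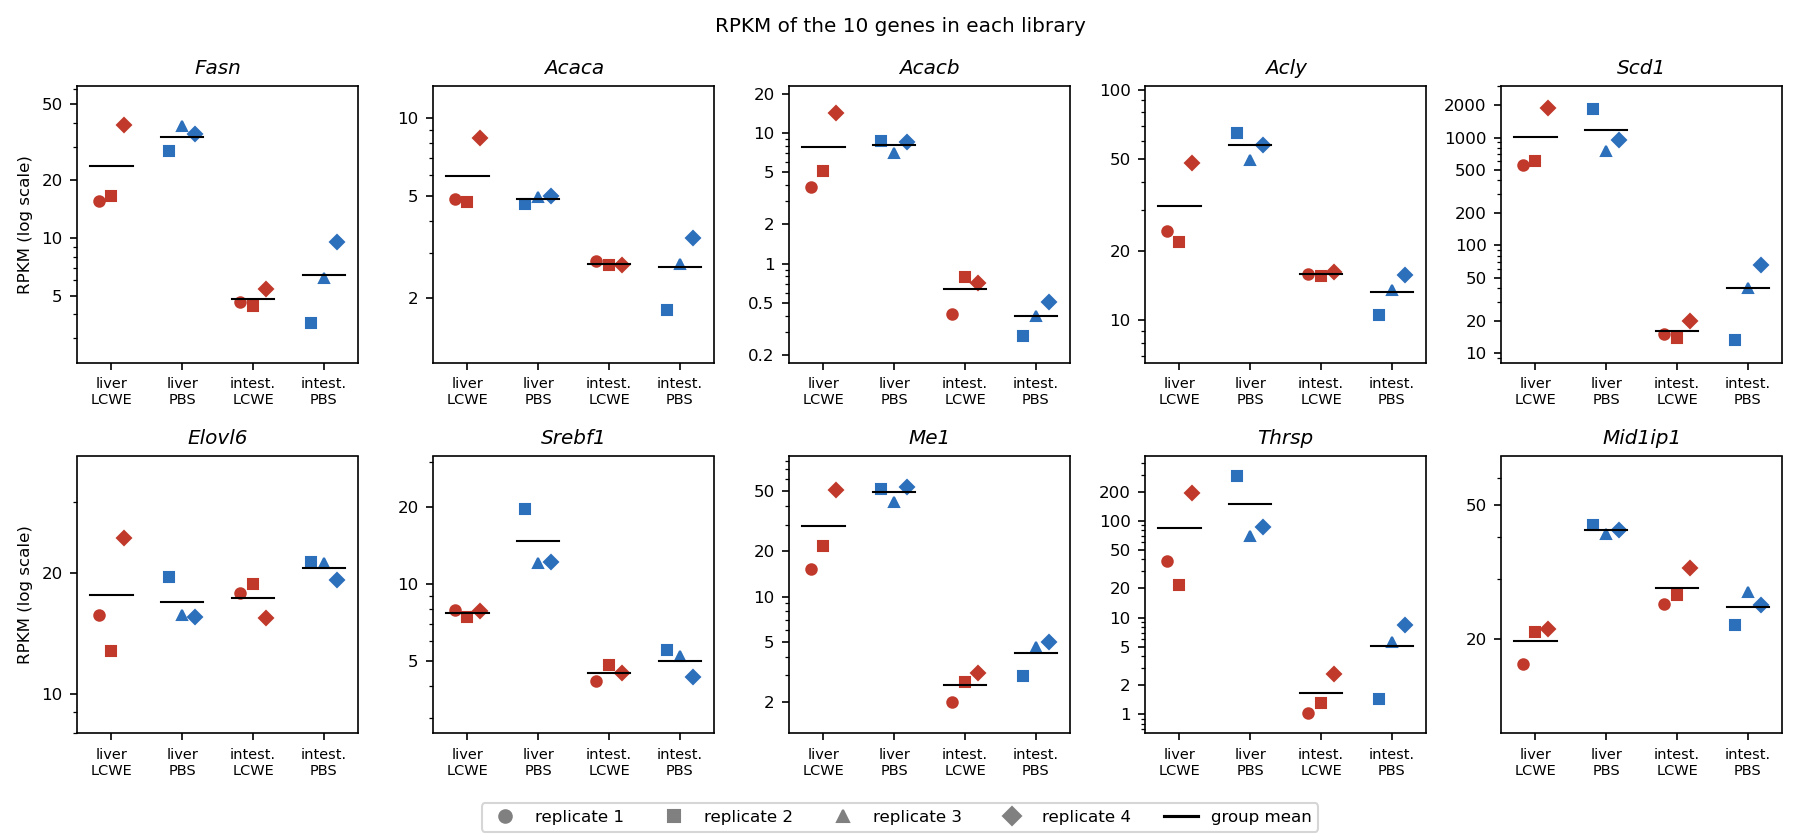
RPKM (log scale) of each of the 10 genes in each library, by group, with replicate numbers as symbols and the group mean as a line. Mid1ip1, Srebf1 and Acly have LCWE livers wholly below PBS livers, and the diamond of LCWE liver replicate 4 is the highest LCWE liver value in every panel but that of Srebf1.

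Srebf1 encodes SREBP1, the transcription factor that switches on the pathway, through the a and c forms that share most of their exons and are not separated in a gene-level value. In mm10 it lies at chr11:60199089-60222581 on the minus strand. Its level was 7.95, 7.42 and 7.85 RPKM in LCWE livers, against 19.8, 12.1 and 12.3 RPKM in PBS livers. The 3 LCWE livers were close together and all below the lowest PBS liver, and the PBS livers spread more, with replicate 2 highest. Means were 7.74 ± 0.28 and 14.7 ± 4.37 RPKM (SD, n = 3 each). The log2 difference was -0.85 with a standard error of 0.19 and did not pass (limma adjusted p = 0.0660). It did pass without PBS replicate 2, at a smaller log2 difference of -0.62 (limma adjusted p = 0.0151). In the intestine Srebf1 stood at 4.18, 4.83 and 4.50 RPKM in LCWE mice and 5.53, 5.21 and 4.31 RPKM in PBS mice, with overlapping groups (log2 difference -0.14, standard error 0.12).

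Mid1ip1, also called Mig12 or Spot 14-related, encodes a small protein that promotes the polymerisation and activity of acetyl-CoA carboxylase. It lies at chrX:10715013-10719690 on the plus strand. LCWE livers had 16.8, 20.96 and 21.3 RPKM, against 43.5, 41.0 and 42.1 RPKM in PBS livers. The highest LCWE liver was below the lowest PBS liver, and PBS livers varied little, with a coefficient of variation of 2.99% against 12.9% in LCWE livers. Mid1ip1 fell by 1.09 on the log2 scale in LCWE livers (standard error 0.12, limma adjusted p = 0.00847). The authors' deposited table lists it too, with a log2 fold change of -1.12 and a false discovery rate of 0.00131. Without LCWE replicate 2 the log2 difference was -1.13 and the adjusted p 0.0521. Of its 2128 bases, 25.5% are shared with the antisense gene Gm14493, whose whole 543 bases lie within its exons. The strandedness is not stated in these sources, so reads of the pair cannot be told apart. Gm14493 had 26.2, 33.7 and 28.5 RPKM in LCWE livers and 68.5, 56.5 and 58.5 RPKM in PBS livers, which also did not overlap.

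Thrsp, or Spot 14, is a paralog of Mid1ip1 and a thyroid hormone and carbohydrate responsive gene of lipogenic tissues. It lies at chr7:97412938-97417730 on the minus strand. LCWE livers had 38.5, 21.7 and 193 RPKM, against 290, 70.0 and 85.5 RPKM in PBS livers. The groups overlapped, LCWE replicate 4 and PBS replicate 2 were far above the rest of their groups, and the highest library had 8.90 times the level of the lowest among LCWE livers and 4.15 times among PBS livers. The log2 difference was -1.13 with a standard error of 0.87 (limma adjusted p = 0.548).

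Acly, ATP citrate lyase, lies at chr11:100476353-100528000 on the minus strand. LCWE livers had 24.4, 21.9 and 48.1 RPKM, against 65.0, 49.7 and 57.8 RPKM in PBS livers. All LCWE livers were below all PBS livers, although LCWE replicate 4 was only just below the lowest PBS liver. The log2 difference was -0.94 with a standard error of 0.29 (limma adjusted p = 0.146).

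Acaca, which encodes acetyl-CoA carboxylase 1 of the cytosol, lies at chr11:84129672-84401651 on the plus strand. Its LCWE livers had 4.84, 4.75 and 8.36 RPKM, against 4.64, 4.93 and 4.98 RPKM in PBS livers. LCWE replicates 1 and 2 lay within the PBS range and replicate 4 above it (log2 difference 0.23, standard error 0.21). Acacb encodes acetyl-CoA carboxylase 2, whose malonyl-CoA at the mitochondrial surface restrains fatty acid oxidation, and lies at chr5:114146535-114250761 on the plus strand. LCWE livers had 3.87, 5.12 and 14.4 RPKM, against 8.68, 7.01 and 8.55 RPKM in PBS livers. LCWE replicates 1 and 2 were below and replicate 4 above every PBS liver (log2 difference -0.26, standard error 0.43).

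Fasn, fatty acid synthase, lies at chr11:120805846-120824547 on the minus strand. LCWE livers had 15.6, 16.5 and 39.0 RPKM, against 28.6, 38.4 and 34.8 RPKM in PBS livers. LCWE replicates 1 and 2 were below all PBS livers and replicate 4 was above all of them (log2 difference -0.63, standard error 0.34, limma adjusted p = 0.396). Elovl6, the elongase that takes palmitate to stearate, lies at chr3:129532355-129638495 on the plus strand. LCWE livers had 15.7, 12.8 and 24.4 RPKM, against 19.6, 15.7 and 15.5 RPKM in PBS livers, and the groups overlapped (log2 difference 0.01, standard error 0.24). The sign of that difference turned under quantile scaling (-0.02).

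Scd1, the desaturase that makes oleate and palmitoleate, was the most abundant of the 10 in liver and lies at chr19:44394451-44407709 on the minus strand. LCWE livers had 558, 608 and 1876 RPKM, against 1843, 751 and 949 RPKM in PBS livers. LCWE replicate 4 and PBS replicate 2 reached similar levels, and the other 2 LCWE livers were below every PBS liver. The log2 difference was -0.35 with a standard error of 0.53 (limma adjusted p = 0.774). Scd1 made up 72.7% to 82.2% of the summed RPKM of the 10 genes in a liver library. Its paralogs Scd2, Scd3 and Scd4 are similar in sequence, so some reads may have been split or dropped. They stood at no more than 2.04 RPKM in any liver library, but Scd2 stood at 17.1 to 44.5 RPKM in the intestine.

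Me1, cytosolic malic enzyme, lies at chr9:86581371-86695953 on the minus strand. LCWE livers had 15.3, 21.7 and 50.8 RPKM, against 51.6, 42.6 and 53.2 RPKM in PBS livers. LCWE replicates 1 and 2 were far below the PBS range and replicate 4 lay inside it (log2 difference -0.91, standard error 0.40, limma adjusted p = 0.290).

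LCWE liver replicate 4 thus stood apart from LCWE replicates 1 and 2 for most of these genes. Its level was 6.42 times the mean of the other two for Thrsp, 3.22 times for Scd1, 3.20 times for Acacb, 2.74 times for Me1, 2.42 times for Fasn and 2.08 times for Acly. For Acaca it was 1.74 times and for Elovl6 1.71 times. For Mid1ip1 it was 1.13 times and for Srebf1 1.02 times, so these 2 genes were at like levels in the 3 LCWE livers. Replicate 4 was the highest of the 3 LCWE livers for 9 of the 10 genes and for 40.3% of all genes tested. Set against the PBS mean, LCWE replicates 1 and 2 had 46.1% and 48.7% of the Fasn level and replicate 4 had 115%, and Me1 stood at 31.2%, 44.2% and 103%. Summed over the 10 genes, LCWE livers had 701, 741 and 2284 RPKM, against 2374, 1032 and 1263 RPKM in PBS livers. The labels give no batch, time of day or feeding state for it. Its reads in genes, 34741958, were the fewest of the 6 livers. The summed macrophage and monocyte markers were 335, 408 and 603 RPKM in LCWE livers, highest in replicate 4, against 129 to 183 RPKM in PBS livers. Marco made up 108, 165 and 319 RPKM of the LCWE sums and Lyz2 109, 111 and 157 RPKM. Adgre1, Cd68 and Cd14 were also highest in replicate 4. Cd163 (14.2, 19.9 and 12.1 RPKM), Itgam and Ccr2 were lowest there, and Csf1r and Clec4f were highest in replicate 2. Of the 9 such markers tested, 6 were called higher in LCWE livers and none was at 0. Neutrophil markers summed to 21.9, 40.3 and 17.7 RPKM in LCWE livers, lowest in replicate 4, against 1.69 to 4.61 RPKM in PBS livers. Of the 10 listed, 4 were tested, and S100a8, S100a9 and Csf3r were called higher. However, S100a8, Ngp and Csf3r passed the filter on low values only through the LCWE livers, so that count depends on their being high there. Lymphocyte markers summed to 5.99 to 7.53 RPKM in LCWE livers, against 2.86 to 3.50 RPKM in PBS livers. Of the 10 listed, 3 were tested and 2 were called higher (Gzmb and Jchain). PBS liver replicate 2, the highest PBS liver for Scd1 and Thrsp, also had the highest erythroid marker sum of the PBS livers, 183 RPKM against 72.2 and 73.4 RPKM in PBS replicates 3 and 4. Its fat cell marker sum was 16.8 RPKM, of which Cfd made up 6.97 RPKM, against 7.45 and 6.69 RPKM in PBS replicates 3 and 4. The part of these markers in the results was not tested.

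**Figure D2:**
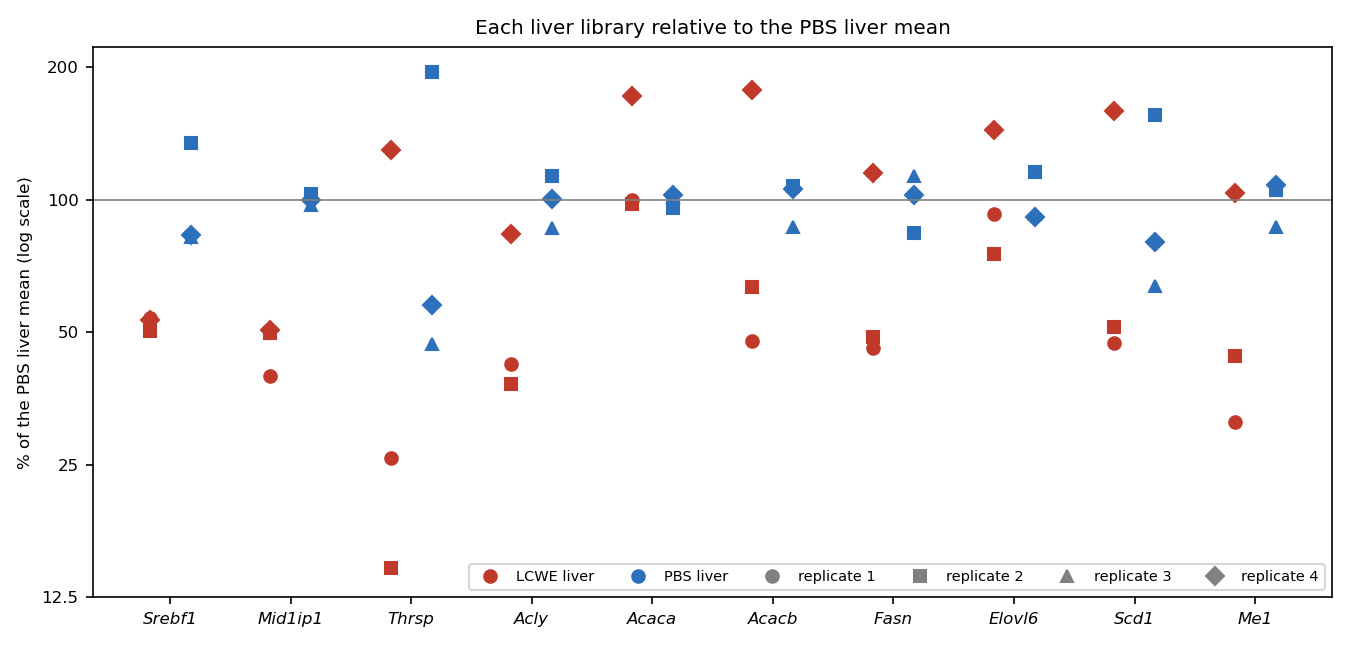
Each liver library as a percentage of the PBS liver mean of the same gene (log scale), LCWE libraries left of PBS libraries, with replicate numbers as symbols. For Srebf1 and Mid1ip1 the 3 LCWE livers lie between 39.8% and 54.0%, while for Thrsp they lie at 25.9%, 14.6% and 130%.

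Without LCWE replicate 4, all 10 estimates were below 0, against 42.1% of all genes tested. The median log2 difference was -0.98, against 0.05 over all genes tested, and 4 genes passed. Acly fell by 1.29 (standard error 0.15, limma adjusted p = 0.0299), Me1 by 1.40 (0.19, adjusted p = 0.0393), Fasn by 1.04 (0.15, adjusted p = 0.0441) and Mid1ip1 by 1.15 (0.13, adjusted p = 0.0299) on the log2 scale. In that fit 0.328% of 14006 genes were called lower and 1.45% higher. Srebf1 (log2 difference -0.86, adjusted p = 0.156), Thrsp (-2.04, 0.206), Acacb (-0.79, 0.103) and Scd1 (-0.91, 0.330) did not pass with limma. The estimates of Acaca (-0.02) and Elovl6 (-0.24) were nearest 0, and their remaining LCWE livers overlapped the PBS livers. This library was singled out on its values for these genes, so the 4 calls describe the other 5 libraries. The median log2 difference of the 10 genes was -0.47 without LCWE replicate 1, -0.46 without LCWE replicate 2, where none of the 10 was called, and -0.56 without PBS replicate 2.

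**Figure D3:**
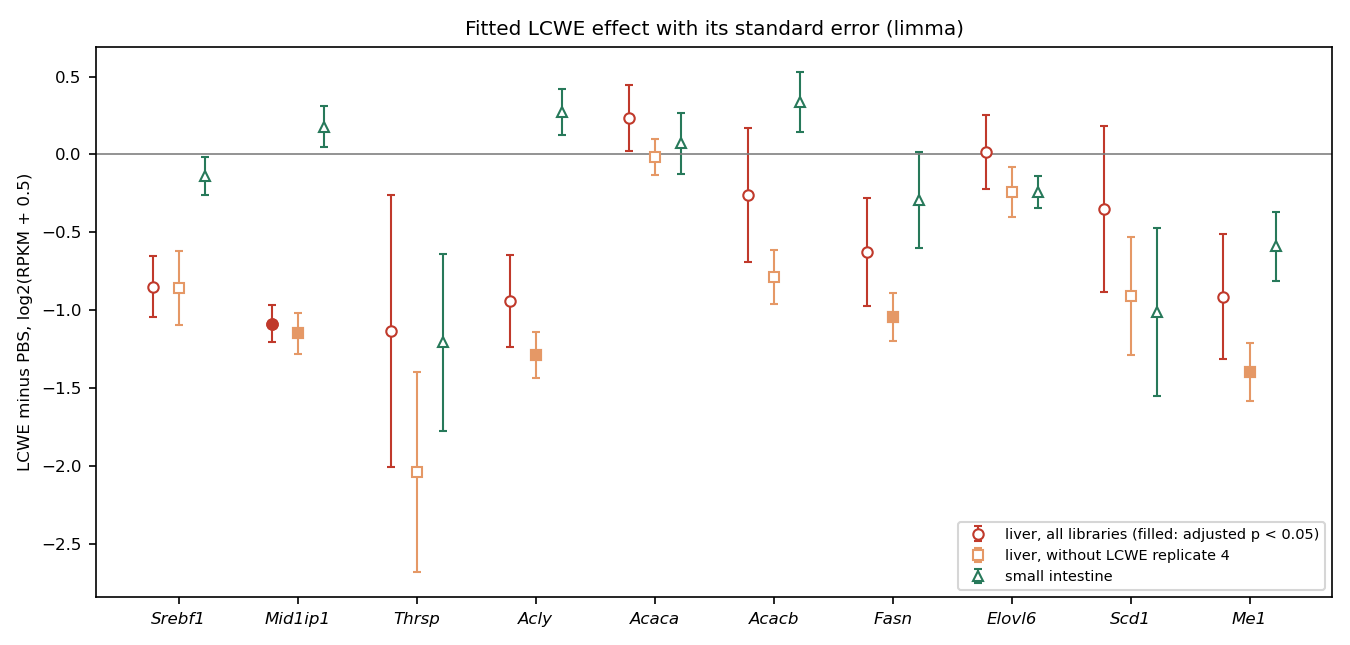
Fitted difference, LCWE minus PBS on the log2(RPKM + 0.5) scale, with its standard error (limma), for liver with all libraries, liver without LCWE replicate 4 and small intestine. Filled symbols have an adjusted p below 0.05: Mid1ip1 in liver with all libraries, and Fasn, Acly, Me1 and Mid1ip1 without LCWE replicate 4.

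PBS liver replicate 2 was the highest of the PBS livers for 7 of the 10 genes and for 32.1% of all genes tested. Its 290 RPKM of Thrsp, 1843 of Scd1 and 19.8 of Srebf1 compare with 70.0 to 85.5, 751 to 949 and 12.1 to 12.3 RPKM in the other PBS livers. Summed hepatocyte markers were 69827 RPKM in that library and 47148 to 47913 RPKM in the other PBS livers. In LCWE livers that sum was 41566 to 45376 RPKM. Alb made up 23556 RPKM of the sum in PBS replicate 2, against 14595 and 13375 RPKM in PBS replicates 3 and 4. Cps1 was lowest in PBS replicate 2 (277 RPKM, against 403 and 348 RPKM), and Tat was highest in PBS replicate 4. No hepatocyte marker was called, and the part of this in the results was not tested. Without PBS replicate 2 the Scd1 difference turned to 0.03.

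Around the pathway in liver, 1 gene of 6 lists was called lower in LCWE mice. Of all genes tested in liver, 39.8% had estimates below 0. Insig1, the endoplasmic reticulum protein that holds SREBP precursors back and is itself a target of SREBP, fell to 49.6, 39.4 and 61.0 RPKM in LCWE livers, against 95.8, 105 and 101 RPKM in PBS livers. Its groups did not overlap (log2 difference -1.02, standard error 0.16, limma adjusted p = 0.0247). It was the only called gene of 6 tested in SREBP processing, of which 4 were below 0. Among 13 genes of acetyl-CoA, citrate and NADPH supply, 12 were below 0 and none passed. The smallest p were those of the citrate carrier Slc25a1, with 31.4 ± 3.23 RPKM in LCWE livers and 41.8 ± 3.11 RPKM in PBS livers (limma adjusted p = 0.107), and of the NADPH-making enzyme Idh1, with 132 ± 17.7 RPKM in LCWE livers and 166 ± 5.22 RPKM in PBS livers (adjusted p = 0.194). Pklr, liver pyruvate kinase, had 17.4, 22.4 and 45.5 RPKM in LCWE livers, against 45.5, 41.2 and 41.7 RPKM in PBS livers, with replicate 4 inside the PBS range, as for Me1. Without that replicate Pklr was called, with a log2 difference of -1.09 (limma adjusted p = 0.0374).

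None of 22 upstream regulators passed in liver, and 13 were below 0. The closest were Mlxip, a glucose-sensing factor, with 1.64 ± 0.12 RPKM in LCWE livers and 0.88 ± 0.25 RPKM in PBS livers (limma adjusted p = 0.0766), and Nr1h4, the bile acid receptor, with 24.2 ± 1.58 RPKM in LCWE livers and 32.0 ± 1.93 RPKM in PBS livers (adjusted p = 0.0807). None of 12 tested genes around AMPK, the kinase that inactivates acetyl-CoA carboxylase, passed (7 below 0), with Prkag1, an AMPK subunit, at an adjusted p of 0.362 and Mcat, the mitochondrial malonyl transferase, at 0.402. None of 13 elongation and desaturation genes passed and 9 were below 0. Fads3 had 1.03 ± 0.15 RPKM in LCWE livers and 1.78 ± 0.15 RPKM in PBS livers (limma adjusted p = 0.0625), and the elongase Elovl3 had 175 ± 32.9 and 268 ± 18.7 RPKM in LCWE and PBS livers (adjusted p = 0.0831). Of 16 glyceride synthesis genes, 8 were below 0 and none passed. Lpin1, a phosphatidate phosphatase, had 19.8, 12.5 and 54.9 RPKM in LCWE livers, against 6.91, 7.61 and 9.19 RPKM in PBS livers (limma adjusted p = 0.152). Gpam, the mitochondrial acyltransferase that starts glyceride synthesis, had 26.5 ± 6.90 RPKM in LCWE livers and 39.5 ± 4.20 RPKM in PBS livers (adjusted p = 0.153).

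In the small intestine none of the 10 genes passed, and 6 of 10 estimates were below 0, against 31.0% of all genes tested. The fit called 0% of 17510 genes lower and 0% higher, although 2202 had an unadjusted p below 0.05, and limma voom on the recovered reads called none either. With 1 fit over the 4 groups 243 genes were called in this comparison, and without LCWE replicate 1 there were 70, with none of the 10 genes among the calls of either. The median log2 difference of the 10 genes was -0.19, against 0.11 over all genes tested. Elovl6 was the one gene whose groups did not overlap, where 6.15% of genes tested had LCWE wholly lower and 13.2% wholly higher.

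Elovl6 had 17.8, 18.8 and 15.5 RPKM in LCWE intestines, against 21.3, 21.2 and 19.2 RPKM in PBS intestines. The highest LCWE library was just below the lowest PBS library (log2 difference -0.24, standard error 0.10, limma adjusted p = 0.406). Me1 had 1.99, 2.70 and 3.13 RPKM in LCWE intestines, against 2.97, 4.62 and 5.03 RPKM in PBS intestines. Its groups overlapped in one library of each group, and its unadjusted limma p of 0.0338 was the only one of the 10 below 0.05 (log2 difference -0.59, adjusted p = 0.36).

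Scd1, Thrsp and Fasn varied more among the PBS intestines than among the LCWE intestines. Scd1 had 15.0, 14.0 and 19.8 RPKM in LCWE intestines, against 13.2, 40.2 and 66.6 RPKM in PBS intestines. Thrsp had 1.02, 1.29 and 2.63 RPKM in LCWE intestines, against 1.45, 5.62 and 8.28 RPKM in PBS intestines. Fasn had 4.63, 4.41 and 5.40 RPKM in LCWE intestines, against 3.57, 6.20 and 9.52 RPKM in PBS intestines. In each of these genes PBS replicate 2 was at or near the LCWE level and PBS replicate 4 was highest. The log2 differences were -1.01 for Scd1 (standard error 0.54, limma adjusted p = 0.461), -1.21 for Thrsp (0.57, 0.436) and -0.29 for Fasn (0.31, 0.649). The authors' deposited table lists Scd1 at -1.36 and Thrsp at -1.68 on the log2 scale, both with a false discovery rate of 0.479.

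Among the PBS intestines, 7 of the 10 genes and 8 of the 10 listed fat cell markers were lowest in replicate 2 and highest in replicate 4. The other 2 markers, the lipid droplet protein Cidec (32.1, 32.0 and 29.5 RPKM in PBS intestines) and the lipase Lipe (14.3, 11.1 and 9.37 RPKM), were highest in replicate 2. Of all genes tested in the intestine, 47.2% were lowest in PBS replicate 2 and 39.4% were highest in PBS replicate 4. The share with both was not counted. Adipoq, the fat cell hormone adiponectin, had 0.61, 0.25 and 0.13 RPKM in LCWE intestines, against 1.18, 8.01 and 14.2 RPKM in PBS intestines. Summed over the 10 listed fat cell markers, LCWE intestines had 23.3, 17.8 and 14.9 RPKM and PBS intestines 54.6, 83.1 and 106 RPKM. Over the LCWE libraries this sum was highest in replicate 1 and lowest in replicate 4. Of the 10 markers, 2 (Adipoq and Cidec) had these extremes and 2 (Lep and Fabp4) had the reverse. Of the 10 genes, 3 (Thrsp, Me1 and Mid1ip1) were lowest in replicate 1 and highest in replicate 4, and 1 (Acaca) was the reverse. The marker sum of PBS replicate 2 was above those of all LCWE intestines, with 32.1 RPKM of it from Cidec and 14.3 RPKM from Lipe. The Scd1 level of PBS replicate 2 was below those of all LCWE intestines. All 6 of the fat cell markers tested were below 0 and none passed, and none was at 0 in all libraries of a group. The enterocyte marker sum was lower in LCWE intestines too, at 1887 to 6046 RPKM in LCWE and 9121 to 19885 RPKM in PBS. All 10 enterocyte estimates were below 0 and none passed. In LCWE replicate 1, however, Sis (231 RPKM), Anpep (865 RPKM) and Slc5a1 (213 RPKM) stood above every PBS intestine. Among PBS libraries the sum ran the other way from the fat cell sum, with replicate 2 highest, although Sis and Anpep were highest in replicate 4. The part of either marker list in the results was not tested. In liver the fat cell markers summed to 7.46 to 10.6 RPKM in LCWE and 6.69 to 16.8 RPKM in PBS, and Retn was at 0 in every liver library.

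**Figure D4:**
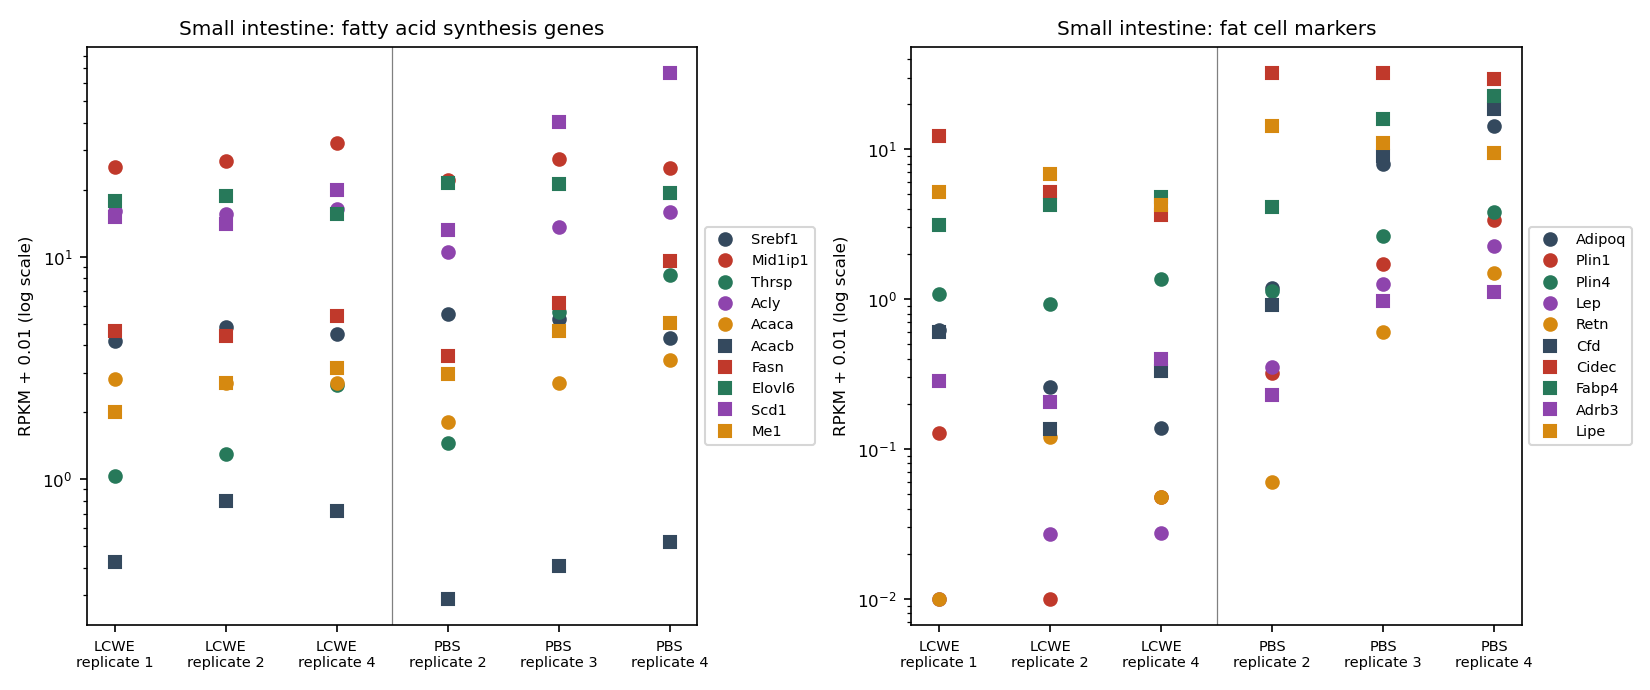
RPKM + 0.01 (log scale) of the 10 genes (left) and of the 10 listed fat cell markers (right) in each small intestine library, LCWE left of PBS. Within PBS, 7 of the 10 genes and 8 of the 10 markers are lowest in replicate 2 and highest in replicate 4, while Cidec and Lipe are highest in replicate 2. Of all genes tested, 47.2% are lowest in PBS replicate 2 and 39.4% highest in PBS replicate 4.

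The other intestinal members gave small differences. Acly had 15.9, 15.6 and 16.3 RPKM in LCWE intestines, against 10.5, 13.5 and 15.8 RPKM in PBS intestines, overlapping only at PBS replicate 4 (log2 difference 0.27, standard error 0.15, limma adjusted p = 0.467). Mid1ip1 had 25.3, 27.0 and 32.5 RPKM in LCWE intestines, against 21.97, 27.6 and 25.1 RPKM in PBS intestines (0.18, standard error 0.13). Acacb had 0.41, 0.79 and 0.71 RPKM in LCWE intestines, against 0.28, 0.40 and 0.51 RPKM in PBS intestines, low in both (0.34, standard error 0.19). Acaca had 2.80, 2.69 and 2.69 RPKM in LCWE intestines, against 1.80, 2.71 and 3.43 RPKM in PBS intestines, around the same level (0.07, standard error 0.20, and -0.05 under quantile scaling).

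Of the pathway lists in the intestine, none had a called gene. Of all genes tested there, 31.0% had estimates below 0. All 12 tested genes of acetyl-CoA and NADPH supply were below 0. Citrate synthase, Cs, had 58.9 ± 15.7 RPKM in LCWE intestines and 91.1 ± 2.98 RPKM in PBS intestines (limma adjusted p = 0.298), and Khk, the fructose kinase, had 36.3 ± 10.03 RPKM in LCWE intestines and 64.0 ± 14.9 RPKM in PBS intestines (adjusted p = 0.308). Of 16 glyceride synthesis genes 12 were below 0. Dgat2, which makes triglyceride, had 5.27 ± 0.83 RPKM in LCWE intestines and 9.27 ± 0.22 RPKM in PBS intestines (log2 difference -0.77, limma adjusted p = 0.186). Mogat2, which re-esterifies absorbed monoglyceride, had 37.8 ± 6.95 RPKM in LCWE intestines and 59.8 ± 7.11 RPKM in PBS intestines (-0.66, adjusted p = 0.239). Of 13 elongation and desaturation genes 11 were above 0, with the smallest p for Fads2 (0.29, adjusted p = 0.332) and Hsd17b12 (0.22, adjusted p = 0.385).

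Of 21 upstream regulators 12 were above 0 in the intestine, where only 31.0% of all genes tested were below 0. Nr1h4 had 40.2 ± 9.56 RPKM in LCWE intestines and 16.1 ± 4.87 RPKM in PBS intestines (SD, n = 3 each; log2 difference 1.30, limma adjusted p = 0.204), and Mlx, a partner of the glucose-sensing factors, had 52.4 ± 4.36 RPKM in LCWE intestines and 63.5 ± 0.94 RPKM in PBS intestines (-0.28, adjusted p = 0.332). Of 12 AMPK-related genes 8 were above 0. The AMPK subunit Prkaa2 had 4.29 ± 0.68 RPKM in LCWE intestines and 2.38 ± 0.47 RPKM in PBS intestines (0.74, limma adjusted p = 0.232), and Trib3, an adaptor in the degradation of acetyl-CoA carboxylase, had 0.50 ± 0.20 RPKM in LCWE intestines and 0.94 ± 0.21 RPKM in PBS intestines (-0.52, adjusted p = 0.364). Of 7 SREBP processing genes 5 were above 0, and the smallest p were those of Srebf2, the sterol-pathway relative of Srebf1 (0.34, limma adjusted p = 0.444), and Mbtps1, a protease that cleaves SREBPs (0.19, adjusted p = 0.458).

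Whether the LCWE difference itself differed between liver and intestine was tested in one fit over the 4 groups. Mid1ip1 was the one gene of the 10 called, at -1.27 on the log2 scale, liver effect minus intestinal effect (standard error 0.18, limma adjusted p = 0.0178). In that fit 0.204% of 18619 genes were called lower and 0.532% higher. Without PBS liver replicate 3 the adjusted p of Mid1ip1 was 0.0508. Acly had a difference of -1.21 (adjusted p = 0.154) and Srebf1 of -0.71 (adjusted p = 0.221). Without LCWE liver replicate 4, which was singled out on its values for these genes, Acly was at -1.56 and passed (limma adjusted p = 0.0214). The other 7 genes had adjusted p-values of 0.690 or more.

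Between control tissues, 9 of the 10 genes were called higher in PBS liver than in PBS small intestine, where 16.9% of 17253 genes were called higher and 60.7% lower. RPKM is a share of each library, and the median over all genes was -0.71 on the log2 scale in this comparison. The median moved to 0.01 under quantile scaling, with 50.3% of called genes higher against 21.8% of those called on RPKM as deposited. The 9 genes were called higher under each scaling tried. Scd1 averaged 1181 ± 582 RPKM in PBS liver and 40.0 ± 26.7 RPKM in PBS intestine (log2 difference 5.04), and Thrsp averaged 149 ± 123 RPKM in PBS liver and 5.12 ± 3.44 RPKM in PBS intestine (4.68). Me1 (3.42), Acacb (3.26), Fasn (2.40), Acly (2.08) and Srebf1 (1.43) followed, and Acaca (0.80) and Mid1ip1 (0.75) differed least among the 9. Acaca reached 1.54 under quantile scaling and Mid1ip1 1.54 under median-ratio scaling. Elovl6 averaged 16.9 ± 2.32 RPKM in PBS liver and 20.6 ± 1.19 RPKM in PBS intestine, did not pass (-0.28, limma adjusted p = 0.0697) and turned to 0.50 under median-ratio scaling (adjusted p = 0.0316). Within PBS intestine the highest means were those of Scd1, Mid1ip1 and Elovl6, and Acacb was lowest at 0.40 ± 0.12 RPKM, while in PBS liver Scd1, Thrsp and Acly led and Acaca was lowest at 4.85 ± 0.19 RPKM.

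Across the 4 groups, the order of means put both liver groups above both intestine groups for Fasn, Acaca, Acacb, Acly, Scd1, Srebf1, Me1 and Thrsp, with no overlap between tissues. For Mid1ip1 the order was PBS liver, LCWE intestine, PBS intestine and LCWE liver, and LCWE liver was wholly below PBS intestine. For Elovl6 neighbouring groups all overlapped. The 2 intestine groups overlapped in every gene but Elovl6, and the liver groups overlapped in all but Acly, Srebf1 and Mid1ip1.

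Genes whose profile over the 6 livers was most like the mean standardised profile of the 10 genes were found by the mean absolute difference between standardised log2 values, among 9718 genes with a mean RPKM of 1 or more, after leaving out predicted genes, pseudogenes and other names such as Gm-numbered and Rik ones. The nearest were Wbscr22 (0.0415), Dgat2 (0.0957), Slc17a8 (0.0972), Pgd (0.101) and AI987944 (0.124). Dgat2 had 18.6, 18.9 and 23.9 RPKM in LCWE livers, against 24.5, 22.1 and 22.2 RPKM in PBS livers. Replicate 4 lay above the other LCWE livers, which follows from choosing Dgat2 by its likeness to this profile. Of the 10 genes, Acly (0.255), Me1 (0.282), Thrsp (0.286) and Fasn (0.316) were nearest to their own mean and Acaca was farthest (0.883). That mean was built from the 10 genes themselves, and 63 genes tested in liver were nearer to it than Acly. Over the 6 intestines and 11862 genes kept in the same way the nearest were Mir5617 (0.0781), Sdhaf2 (0.126), Ccdc80 (0.129), Samd4b (0.134) and Rsrc2 (0.137). There Thrsp (0.299), Fasn (0.358) and Scd1 (0.362) were nearest to their mean, while Elovl6 (0.987) and Srebf1 (0.992) were far from it.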

How the data were processed

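Per the file headers, the authors' deposited expression table holds RPKM per gene and library, and on its values these were scaled to each library's total in the table. Per the submitters' processing notes, the genome build was mm10, and the tools listed there, with no role given, were edgeR 3.12.1, Subread 1.5.1, featureCounts and Trimmomatic 0.36. The sources used here name no aligner. Multiplied by gene length, 100% of the values were whole reads (tolerance 0.001), which gives the depth. Of 16 library columns, 12 matched samples and 4 were not used. The authors' deposited comparison table gives log2 fold changes, p-values and false discovery rates, and the lowest size of a log2 fold change in it is 1.00.

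Groups came from the labels. Genes were kept at 0.5 RPKM or more in at least 3 fitted libraries and tested with limma 3.58.1 (R 4.3.3, eBayes with trend, two-sided), each tissue apart, PBS liver against PBS intestine, and the tissue difference in 1 fit. The procedure was tested on simulated data. The 10 genes, pathway lists and markers were chosen with earlier results of these data known. Named genes are all 10, per list those called or, where none was, from the 2 smallest p, and the 5 nearest profiles after leaving out Gm-numbered, Rik, Ensembl-numbered, mitochondrial, pseudogene, and immunoglobulin and T cell receptor segment names. Pklr, Gm14493 and the Scd paralogs were chosen after seeing their values. Promoters are from RefSeq, and gene positions from the deposited table, on the same chromosome and strand in GENCODE M21. Alternatives were 2 other pseudocounts (0.1 and 1), 2 other filters (none and 1 RPKM), 2 scalings (quantile and median-ratio), a replicate block, voom on recovered reads, 1 fit over 4 groups and leaving out each library. Pathway counts without LCWE liver replicate 4 were added after seeing the data.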

Additional observations from a re-analysis of the deposited data

Results flagged for a closer look

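Mid1ip1 gave opposite placings in the 2 tissues: every LCWE liver was below the PBS liver mean and every LCWE intestine was above the PBS intestine mean. In the intestine the groups overlapped and Mid1ip1 did not pass (log2 difference 0.18, limma adjusted p = 0.545). The liver effect minus the intestinal effect was -1.27 on the log2 scale and was tested (limma adjusted p = 0.0178).

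Acly gave the same opposite placings, with 24.4, 21.9 and 48.1 RPKM in LCWE livers around a PBS mean of 57.5 RPKM and 15.9, 15.6 and 16.3 RPKM in LCWE intestines around a PBS mean of 13.3 RPKM. The liver effect minus the intestinal effect was -1.21 on the log2 scale and did not pass (limma adjusted p = 0.154). In the intestine the groups overlapped and Acly did not pass (log2 difference 0.27, limma adjusted p = 0.467).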

How the results depend on the processing

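Of the estimates for the 10 genes and the counts called in the 6 pathway lists, 601 alternative values kept their direction and side of the threshold, 28 changed sign, 9 passed where the chosen settings did not, 3 no longer passed and 1 count moved. The cause of these shifts was not tested. Acacb and Thrsp had the fewest reads, as few as 103 and 90 in a library. Whether depth limited their results was not tested. In liver the count of called genes was 582, against 335 with no filter, 24 with the replicate block, 987 with 1 fit over 4 groups and 55 to 943 on leaving out a library, and 84.0% of called genes were higher, against 73.5% under quantile and 76.6% under median-ratio scaling. Of the 10 genes, 1 was called, against 0 with the block, 2 with voom (Srebf1, adjusted p = 0.0482, and Mid1ip1), 3 with 1 fit over 4 groups (Acly, 0.0463, Srebf1, 0.0116, and Mid1ip1) and 0 to 4 on leaving out a library. Over its 15 alternatives the adjusted p of Mid1ip1 in liver ranged from 0.000695 to 0.239. In the intestine 0 genes were called, against 243 with 1 fit over 4 groups and 0 to 70 on leaving out a library, 70 without LCWE replicate 1 and 4 without LCWE replicate 2. For the difference between tissues 137 genes were called, 28 with the block and 20 to 461 on leaving out a library, and of the 10 genes 0 to 2.

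Signs turned where the estimate was small. In liver Elovl6 was at -0.022 under quantile and -0.063 under median-ratio scaling and -0.24 to 0.21 on leaving out a library, Acacb at 0.0036 with the block and -0.79 to 0.10, Scd1 at -0.91 to 0.028 and Acaca at -0.015 to 0.36. In the intestine Acaca was at -0.049 under quantile and -0.020 under median-ratio scaling and -0.14 to 0.25 on leaving out a library, and Fasn at -0.63 to 0.020. Between PBS tissues Elovl6 was at 0.18 under quantile and 0.50 under median-ratio scaling. For the difference of effects Thrsp was at -0.067 with a pseudocount of 1, -0.043 under median-ratio scaling and -0.83 to 0.73 on leaving out a library, Fasn at -0.75 to 0.0033, Me1 at -0.81 to 0.040 and Acaca at -0.086 to 0.37.

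Replicate numbers are shared between groups, but nothing in the labels says that they mark mice or batches. Over 14 pairs of libraries with the same number, the correlation of deviations from the group mean was -0.08 to 0.11, so the numbers were not taken as pairs. With the replicate block, no gene of the 10 was called in liver or intestine, Mid1ip1 in liver was at -0.999 (limma adjusted p = 0.239), and Mid1ip1 was called for the difference between tissues.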
